A study of Homo sapiens with 15 samples.

Results

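The proteasome genes of HT-1080, a human fibrosarcoma line, were followed across cycling cells and senescent cells given the kinase inhibitor GNF-7. The set held every protein-coding gene whose symbol is PSMA, PSMB, PSMC, PSMD, PSME, PSMF or PSMG followed by a number. It came to 48 genes of the 60670 in the deposited count table, and 53 rows with similar names, 44 of them numbered pseudogenes, were left out. The 48 were 7 alpha subunits and 7 beta subunits of the 20S core, 3 immunoproteasome beta subunits, the testis subunit PSMA8, the thymus subunit PSMB11, 6 ATPases and 11 further subunits of the 19S cap, 3 chaperones of the 19S base, 4 chaperones of the 20S core, 4 genes of other caps and PSMF1.

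HT-1080 is an established line of mesenchymal tumour cells. There were 5 groups of 3 libraries, labelled as biological replicates. One group was cycling cells given the solvent DMSO, labelled 6 h. The other 4 groups were cells in which a dominant negative form of the telomere protein TRF2 (gene TERF2) had been expressed for 6 days, which uncaps telomeres and makes the cells senescent, and which then received DMSO or 1 uM GNF7 (GNF-7) for 6 h or 24 h. The design therefore asks what differs between senescent and cycling cells and what GNF-7 changes in senescent cells, for which the series' title names the kinase GCN2 as target. Cycling cells with GNF-7 were not analysed here, so an effect of the compound cannot be tied to senescence, and the cycling group had no 24 h time.

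Libraries held 25991007 to 32323393 counts. TERF2, whose reads include any from the expressed mutant, stood at 58.2 ± 3.65 CPM (counts scaled to a common library size; mean ± SD, n = 3) in cycling cells and at 287 ± 8.17 in senescent cells with DMSO for 6 h. It was lower with GNF-7, at 132 ± 5.38 CPM at 24 h against 220.0 ± 7.26 with DMSO. Of 6 mesenchymal markers VIM had group means of 3474 to 4460 CPM and S100A4 of only 0.43 to 2.75 CPM, and all 6 fell with GNF-7 at 24 h (median log2 fold change -1.15), whose part in the results was not tested. Of 10 markers of epithelial, blood, endothelial and neural cells, 8, EPCAM, CDH1 and PTPRC among them, were too low to be tested. The 2 that were tested were endothelial PECAM1 and neural TUBB3. With GNF-7 at 24 h their log2 fold changes were 0.92, not called, and -0.52, called lower. The share of counts from mitochondrial genes was 4.32 ± 0.637% in cycling cells, 11.7 ± 0.638% and 16.9 ± 1.80% in senescent cells with DMSO for 6 h and 24 h, and 14.1 ± 1.08% and 23.3 ± 0.767% with GNF-7 for the same times. It moved against the level of the proteasome genes in all comparisons but that of the 2 DMSO times, and its part in the results was not tested. Without the mitochondrial genes in the fit, the count of proteasome genes that fell stayed within 1.5 times in each comparison.

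The proteasome degrades proteins that carry ubiquitin chains. Rings of alpha subunits and rings of beta subunits stack into a barrel, the 20S core, whose cutting sites lie inside and are carried by PSMB5, PSMB6 and PSMB7. The 19S cap binds ubiquitin chains, removes them and feeds the unfolded protein through the gate in the alpha ring, a task of its ring of ATPases. In cells that see interferon, PSMB8, PSMB9 and PSMB10 take the place of the 3 cutting subunits and form the immunoproteasome, which makes peptides for MHC class I molecules. Transcription of most subunits is known to respond to NRF1 (gene NFE2L1), which binds antioxidant response elements (AREs), and that of the immunoproteasome to interferon through interferon-stimulated response elements (ISREs).

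RefSeq promoter windows (build GRCh38.p14, 250 bases before to 50 after a start site) were given for 42 of the 48 genes. Motifs were searched on both strands. The ARE core TGACNNNGC was in a window of 15 of the 42 genes, or 35.7%, against 16.1% of all 27305 genes with a window. The ISRE core (GAAA, any 2 bases, GAAA) was in 7 of the 42, or 16.7%, against 4.38% of all genes: PSMA4, PSMB4, PSMB8, PSMB10, PSME1, PSME2 and PSMG4. The form with GC as the 2 middle bases was in 5 of these 7 and in 35 of all 35116 windows. CCAAT was in 20 of the 42, or 47.6%, against 39.7%. The amino acid response element (AARE) core TGATGNAA, the kind of site that ATF4 binds, was in the window of PSMF1 alone, 2.38% of the 42 against 4.46% of all genes. A match is a match of letters, not a site shown to be bound.

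Promoters with a match are shown from 200 bases before to 20 from the start site on, 5′ to 3′ on the strand of the gene. Capitals mark only the motif named for each set or gene. Matches of the other motifs searched stay in lower case, such as an ARE core in PSME2 and CCAAT in PSMB3. The first set holds an ARE core: PSMG1, the gene that fell most with senescence (chr21:39183432-39183651, minus strand), and 2 subunits that fell with senescence and with GNF-7, PSMB3 (chr17:38752541-38752760, plus strand) and PSMD3 (chr17:39980607-39980826, plus strand). The match begins 183, 104 and 37 bases before the start in that order.
PSMG1: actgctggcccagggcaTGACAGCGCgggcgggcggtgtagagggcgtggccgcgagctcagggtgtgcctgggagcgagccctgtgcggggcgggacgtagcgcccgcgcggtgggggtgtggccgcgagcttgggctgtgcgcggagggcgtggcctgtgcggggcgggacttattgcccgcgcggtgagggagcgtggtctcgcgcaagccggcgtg
PSMB3: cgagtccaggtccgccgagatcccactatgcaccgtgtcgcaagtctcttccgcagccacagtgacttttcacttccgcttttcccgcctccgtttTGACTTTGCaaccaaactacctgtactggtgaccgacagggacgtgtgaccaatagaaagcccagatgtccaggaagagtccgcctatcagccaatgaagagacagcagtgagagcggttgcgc
PSMD3: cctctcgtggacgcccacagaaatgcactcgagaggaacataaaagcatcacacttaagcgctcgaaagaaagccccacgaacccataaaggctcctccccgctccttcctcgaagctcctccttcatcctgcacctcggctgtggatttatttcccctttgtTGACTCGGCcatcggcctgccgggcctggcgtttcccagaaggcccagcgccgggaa

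The second set holds an ISRE core. It shows 2 immunoproteasome subunits, which GNF-7 was not called to lower, and a cap subunit of the same interferon class: PSMB8 (chr6:32844028-32844247, minus strand), PSMB10 (chr16:67936831-67937050, minus strand) and PSME2 (chr14:24146591-24146810, minus strand). The PSMB8 window belongs to the second of its 2 start sites and overlaps the gene PSMB9, which runs the other way. Its match lies on the opposite strand and begins 4 bases before the start. The matches of PSMB10 and PSME2 begin 21 and 28 bases before it.
PSMB8: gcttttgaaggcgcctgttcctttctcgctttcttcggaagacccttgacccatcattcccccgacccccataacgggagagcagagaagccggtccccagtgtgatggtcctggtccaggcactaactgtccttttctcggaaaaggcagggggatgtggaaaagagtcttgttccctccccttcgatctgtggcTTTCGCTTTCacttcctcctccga
PSMB10: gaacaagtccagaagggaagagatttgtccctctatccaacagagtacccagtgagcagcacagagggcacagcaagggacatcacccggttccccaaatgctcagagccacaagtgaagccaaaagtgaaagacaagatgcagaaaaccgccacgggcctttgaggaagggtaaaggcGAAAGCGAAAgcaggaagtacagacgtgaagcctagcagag
PSME2: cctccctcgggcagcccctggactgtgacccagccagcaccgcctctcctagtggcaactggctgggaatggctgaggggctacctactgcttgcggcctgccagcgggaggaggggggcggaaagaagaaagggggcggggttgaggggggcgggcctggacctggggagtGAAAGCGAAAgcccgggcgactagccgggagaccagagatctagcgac

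PSMF1 (chr20:1113063-1113282, plus strand) is shown because it was the gene that rose with GNF-7 at 24 h. Its AARE core lies on the opposite strand, 11 bases after the start.
PSMF1: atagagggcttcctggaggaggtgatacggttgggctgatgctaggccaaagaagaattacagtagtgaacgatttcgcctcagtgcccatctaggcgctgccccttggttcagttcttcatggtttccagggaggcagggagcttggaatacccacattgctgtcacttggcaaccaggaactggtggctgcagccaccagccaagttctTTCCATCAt

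Of the 48 genes, 46 had enough counts to be tested. PSMA8, the alpha subunit of male germ cells, had 0 counts in 14 libraries and 3 in 1 GNF-7 6 h library, and PSMB11, the beta subunit of the thymic cortex, had 0 to 5. A count of 0 allows up to 3 counts, so neither was detectable above that floor in most libraries. Levels of different genes were compared per length, as TPM, which divides by the combined exons of all isoforms, which understates genes with long alternative exons. In cycling cells the 31 subunits of the 20S core and the 19S cap ranged from 7.94 ± 0.526 TPM for PSMA2 to 660 ± 23.1 TPM for PSMD2, with a median of 166. The cutting subunit PSMB5 stood at 394 ± 25.4 TPM. Its immunoproteasome counterpart PSMB8 stood at 59.4 ± 3.99 TPM, PSMB9 at 17.8 ± 0.128 and PSMB10 at 10.7 ± 0.955. Each of the 3 was lower per length than the subunit it replaces. The levels of PSMB10 and PSMB8 are uncertain too. PSMB10 shares 34.8% of its exonic bases with another gene on its strand, and 20.6% of those of PSMB8 lie opposite other genes.

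Senescent cells held less proteasome mRNA than cycling cells. In DMSO at 6 h, 45 of the 46 tested genes fell and 0 rose, against 34.4% of all 18563 tested genes that fell and 35.6% that rose. The test was edgeR's quasi-likelihood test with Benjamini-Hochberg adjustment over all tested genes and a threshold of 0.05. The median log2 fold change was -0.55, against 0.06 for all genes. In the 45 genes every senescent library lay below every cycling library, against 35.4% of all genes. In bulk RNA, fewer cells that express a gene and less of its RNA per cell cannot be told apart, nor can a change of a gene from a change of the total, since all values are relative to the library. The median was -0.42 with total counts as the scale, which moved the median of all genes by 0.13, and 45 genes fell with each library left out in turn.

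**Figure D1:**
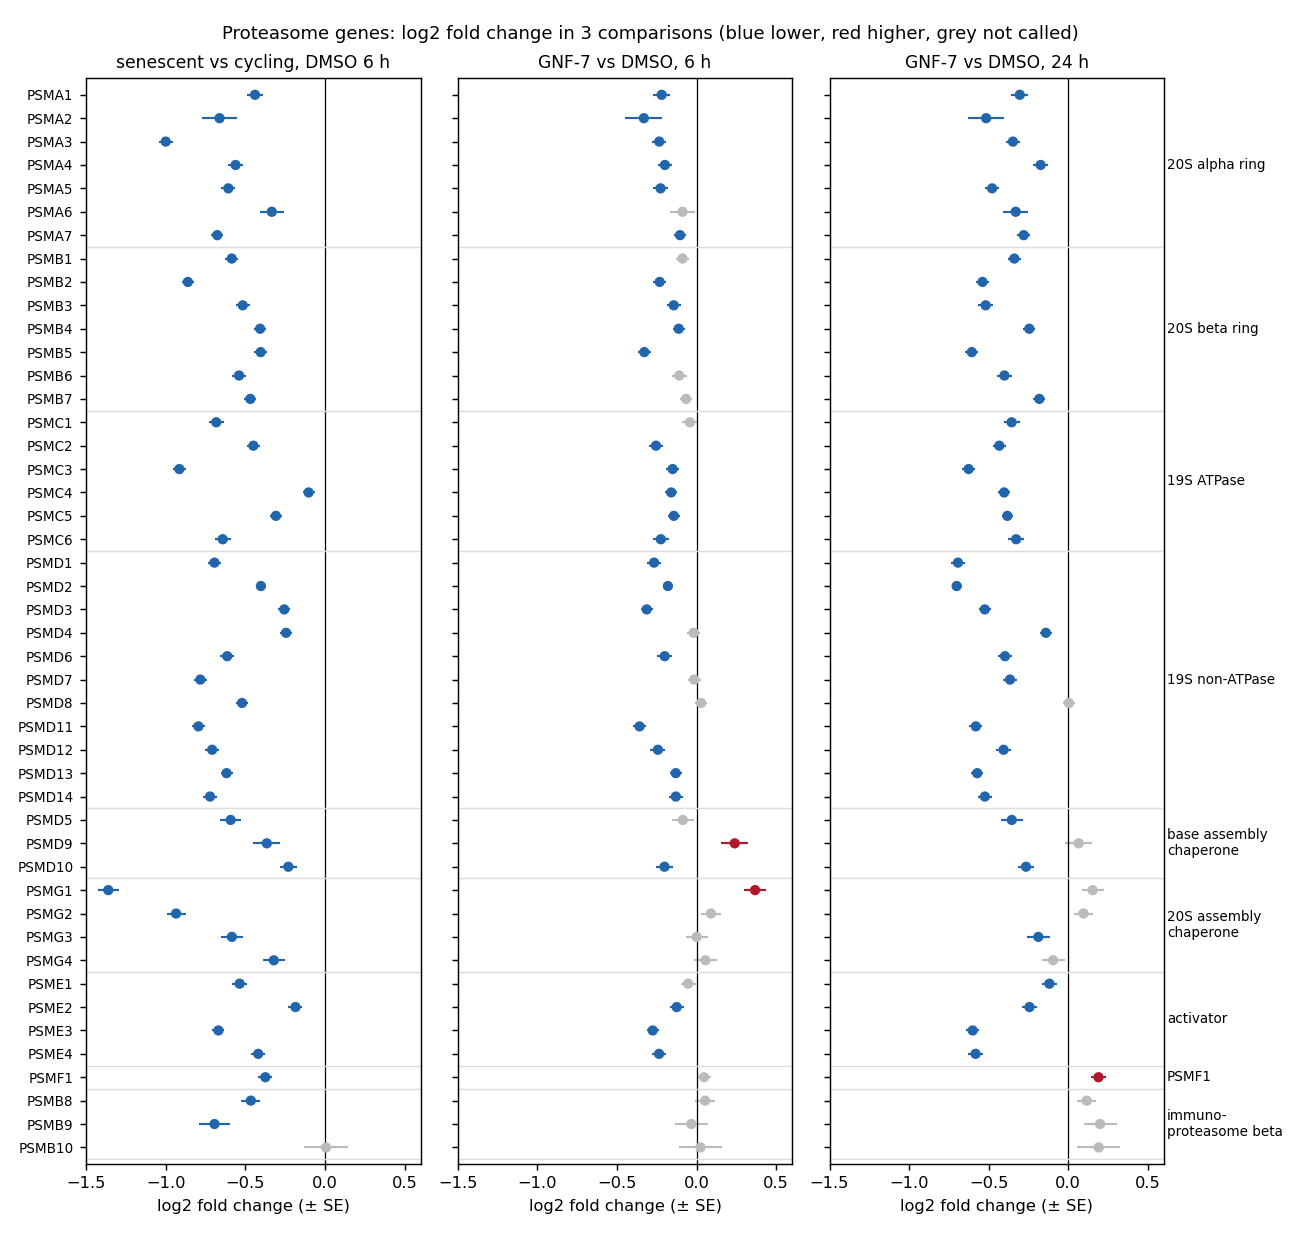
Log2 fold change of each tested proteasome gene, ordered by role, in senescent against cycling cells and in GNF-7 against DMSO at 6 h and 24 h. Blue genes fell, red genes rose and grey genes were not called, lines are standard errors, and the 45 genes that fell with senescence all lie left of 0.

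In the 20S core all 7 alpha subunits and all 7 beta subunits fell with senescence, with medians of -0.61 and -0.52. PSMA3, an alpha subunit, was at 144, 145 and 138 CPM in the cycling libraries and at 70.5, 71.6 and 71.0 CPM in the senescent ones. The 2 groups were far apart, and the level fell to 0.4998 of that of cycling cells (log2 fold change -1.001, SE 0.04, edgeR adjusted p = 9.9e-30). In the beta ring PSMB2 fell most, by 0.86 on the log2 scale, and the cutting subunit PSMB5 least, by 0.40. PSMB5 was at 193, 199 and 213 CPM in cycling and at 156, 152 and 149.7 CPM in senescent cells, with no overlap. The other 2 cutting subunits fell by 0.54 (PSMB6) and 0.47 (PSMB7) on the log2 scale. The alpha subunit with the smallest fall was PSMA6, at -0.33.

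In the 19S cap all 6 ATPases and all 11 other subunits fell, with medians of -0.55 and -0.62. The ATPases differed widely among themselves. PSMC3 was at 219, 223 and 223 CPM in cycling cells and at 119.7, 116 and 118 CPM in senescent cells, and fell by 47.0% (log2 fold change -0.92, SE 0.04, edgeR adjusted p = 4.6e-29). PSMC4, another ATPase of the ring, was at 189, 189 and 193 CPM against 179.6, 177 and 175 CPM, and fell by 6.89% (edgeR adjusted p = 0.012). The call of PSMC4 was lost without the filter on low counts and with only the 2 groups in the fit. Its sign turned with total counts as the scale (0.03) and when only genes averaging 5 CPM or more were kept (0.05). This last setting, called the 5 CPM filter below, also computed the scale anew from the genes kept. Among the other subunits PSMD11 fell most, by 0.80 on the log2 scale, and the ubiquitin receptor PSMD4 least, by 0.24. PSMD14, the enzyme that removes ubiquitin chains, fell by 0.72. PSMD2, the scaffold subunit with the highest level of all, was at 1033, 1054 and 1045 CPM in cycling cells and at 793, 789 and 786 CPM in senescent cells.

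The chaperones that build the particle held the largest fall. PSMG1 and PSMG2 pair up to assemble the alpha ring. PSMG1 (chr21:39174769-39183851 in GENCODE 29, minus strand) was at 73.9, 68.4 and 68.7 CPM in cycling cells and at 27.4, 25.0 and 29.8 CPM in senescent cells, so that no senescent library came near a cycling one. It fell by 61.1% (log2 fold change -1.36, SE 0.06, edgeR adjusted p = 6.6e-27). PSMG2 fell by 0.94 and the other pair, PSMG3 and PSMG4, by 0.59 and 0.32 on the log2 scale. The chaperones of the 19S base fell too: PSMD5 by 0.59, PSMD9 by 0.37 and PSMD10 by 0.23. The fall of PSMD10 was no longer called with total counts as the scale or with the 5 CPM filter.

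The other caps fell unequally with senescence. PSME1 and PSME2 form the interferon-induced cap PA28, PSME3 the nuclear cap PA28gamma, and PSME4 is the large cap PA200. PSME3 fell by 0.67, PSME1 by 0.54, PSME4 by 0.42 and PSME2 by 0.19 on the log2 scale, and PSME2 lost its call with total counts or the 5 CPM filter. PSMF1, known as the inhibitor PI31, was at 117, 119 and 119 CPM in cycling and at 95.4, 91.9 and 86.2 CPM in senescent cells. The groups did not overlap, and PSMF1 fell by 0.37.

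The immunoproteasome subunits split. PSMB9 was at 16.2, 15.6 and 15.9 CPM in cycling cells and at 9.64, 10.1 and 9.71 CPM in senescent ones, and fell by 38.2% (log2 fold change -0.69, SE 0.10, edgeR adjusted p = 7.8e-09). PSMB8 was at 50.7, 48.9 and 55.5 CPM against 40.9, 35.1 and 36.3 CPM and fell by 0.47. PSMB10 was at 5.55, 6.20 and 5.48 CPM against 6.69, 5.65 and 4.96 CPM. Its groups overlapped and its log2 fold change was 0.01 with an SE of 0.14 (edgeR adjusted p = 0.97), which makes it the exception among the 46. PSMB10 shares 34.8% of its exonic bases with another gene on its strand, and 20.6% of those of PSMB8 lie opposite other genes, so their values are uncertain if counting did not separate them.

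Genes of MHC class I antigen processing, which work downstream of the immunoproteasome, were counted beside it. Of 14, 11 rose and 2 fell with senescence, beside 35.6% and 34.4% of all tested genes, with a median log2 fold change of 0.48. With total counts or the 5 CPM filter 1 fell. The 11 included TAP1, which carries peptides into the endoplasmic reticulum. TAP1 was at 39.5, 38.3 and 37.7 CPM in cycling and at 97.9, 87.9 and 89.5 CPM in senescent cells (log2 fold change 1.25). HLA-B, a class I heavy chain, rose by 1.32. IRF1, an interferon-induced factor, had a log2 fold change of -0.13 that was not called (edgeR adjusted p = 0.084) except without the first senescent DMSO 6 h library, where it was -0.17. PSMB8 and PSMB9 fell in the same libraries in which TAP1 rose.

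Proteasome genes fell further with GNF-7 for 6 h. Of the 46, 27 fell and 2 rose against DMSO for 6 h, beside 21.4% and 17.9% of all tested genes. The median log2 fold change was -0.13, or -0.078 with the 5 CPM filter, against 0.01 for all genes. In 28 genes every GNF-7 library lay below every DMSO library, against 25.1% of all genes. The changes were small: the largest fall was that of PSMD11, which fell by 22.01% (log2 fold change -0.36, SE 0.04, edgeR adjusted p = 3.9e-11). The comparisons with senescence and with GNF-7 at 6 h share the DMSO 6 h libraries, and no overlap between the 2 lists is read as a result.

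By role, 6 of 7 alpha subunits, 4 of 7 beta subunits, 5 of 6 ATPases and 8 of 11 other cap subunits fell at 6 h. PSMB5 fell most of the beta ring, from 156, 152 and 149.7 CPM to 123, 119 and 123 CPM, or by 20.4% (log2 fold change -0.33, SE 0.04, edgeR adjusted p = 3.3e-10). The other cutting subunits PSMB6 and PSMB7 were not called, at -0.11 and -0.07, except that PSMB6 was called without the third DMSO 6 h library (-0.13). The alpha subunit PSMA2 fell by 0.33 and PSMA6 was not called, at -0.09. PSMA2 lost its call without the second DMSO 6 h library (edgeR adjusted p = 0.057) or the third GNF-7 6 h library (0.064). PSMC2 fell most of the ATPases, by 0.26, and PSMC1 was at -0.04. Of the exonic bases of PSMC1, 75.8% lie opposite another gene, so its value is uncertain if counting did not separate the strands. PSMC3 fell by 0.15, and lost its call without the second GNF-7 6 h library (edgeR adjusted p = 0.098). PSMD3 fell by 0.31 and PSMD1 by 0.27. PSMD8, a subunit of the lid, had a log2 fold change of 0.03 and was not called.

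PSMG1 and PSMD9 were the 2 genes that rose at 6 h. PSMG1 went from 27.4, 25.0 and 29.8 CPM with DMSO to 38.3, 33.2 and 34.2 CPM with GNF-7. The lowest GNF-7 library lay above the highest DMSO library, and the rise was 28.97% (log2 fold change 0.37, SE 0.07, edgeR adjusted p = 9.0e-06). The level stayed far below the 70.3 ± 3.12 CPM of cycling cells. PSMD9, a chaperone of the base, went from 14.2, 13.9 and 13.98 CPM to 17.0, 17.3 and 15.4 CPM without overlap (log2 fold change 0.24, edgeR adjusted p = 0.020). Its call was lost without the filter on low counts (adjusted p = 0.064) and without either the second or the third DMSO library or the first or second GNF-7 library (0.055 to 0.069). PSMD9 shares 19.9% of its exonic bases with other genes on its strand. PSMG2, PSMG3 and PSMG4 were not called, at 0.09, 0.00 and 0.06, and PSMD10 fell by 0.20.

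Of the other caps, PSME3 fell by 0.28, PSME4 by 0.24 and PSME2 by 0.12 on the log2 scale at 6 h, while PSME1 was at -0.05 and not called. PSME2 lost its call without the second DMSO library, or the second or the third GNF-7 library (edgeR adjusted p of 0.054 to 0.070), and with the 5 CPM filter. PSMB8, PSMB9 and PSMB10 were at 0.05, -0.03 and 0.02, none of them called. PSMF1 was at 0.05 and not called.

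At 24 h the difference between GNF-7 and DMSO was wider. Of the 46 genes 37 fell and 1 rose, beside 29.7% and 29.3% of all tested genes, and the median log2 fold change was -0.35 against 0.04 for all genes. In 36 genes every GNF-7 library lay below every DMSO library, against 30.9% of all genes. Among the 31 subunits of the 20S core and 19S cap, 30 fell, with a median of -0.40 over the 31, and PSMD8 was the exception. The count that rose depended on the processing: it was 3 with total counts as the scale and 7 with the 5 CPM filter.

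**Figure D2:**
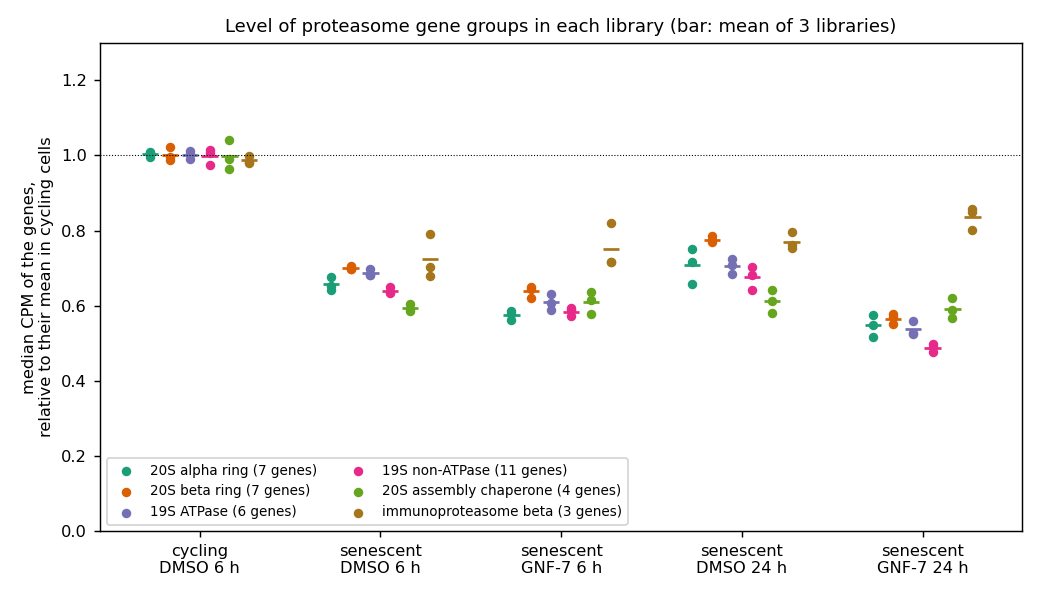
Level of each class of proteasome genes in every library, as the median over its genes of CPM divided by the mean of the cycling libraries. Points are libraries and short lines group means. The 19S subunits that are not ATPases averaged 0.676 of the cycling level in senescent cells with DMSO at 24 h and 0.489 with GNF-7 at 24 h, while the immunoproteasome subunits averaged 0.771 and 0.835.

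The largest fall at 24 h was that of PSMD2 (chr3:184298709-184309054 in GENCODE 29, plus strand). It was at 790.0, 798 and 807 CPM with DMSO and at 488, 488 and 498 CPM with GNF-7. The groups were far apart, at 798 ± 8.48 and 491 ± 5.75 CPM, and PSMD2 fell by 38.5% (log2 fold change -0.70, SE 0.03, edgeR adjusted p = 2.6e-28). The other large scaffold of the base, PSMD1, fell by 0.69. PSMD11 fell by 0.58, PSMD13 by 0.57, PSMD3 and PSMD14 by 0.52 and PSMD4 by 0.14, and PSMD4 lost its call with the 5 CPM filter. PSMD8 was at 152, 150.1 and 149 CPM with DMSO and at 155, 143 and 154 CPM with GNF-7. Its groups overlapped, and its log2 fold change was 0.00 with an SE of 0.04 (edgeR adjusted p = 0.94). It was called higher (0.10) with the 5 CPM filter.

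All 6 ATPases fell at 24 h, with PSMC3 first. It was at 131, 128 and 127 CPM with DMSO and at 86.2, 77.9 and 86.3 CPM with GNF-7, and fell by 35.2% (log2 fold change -0.63, SE 0.04, edgeR adjusted p = 4.2e-20). PSMC6 had the smallest fall, 0.33 on the log2 scale. PSMC4, the ATPase with the smallest fall in senescence, fell by 0.40.

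All 7 beta subunits and all 7 alpha subunits fell as well. PSMB5 went from 171, 166 and 171 CPM to 113, 113 and 108 CPM, and fell by 34.3% (log2 fold change -0.61, SE 0.04, edgeR adjusted p = 7.6e-21). The falls of PSMB6 and PSMB7, the other cutting subunits, were 0.40 and 0.18 on the log2 scale. Of the alpha subunits PSMA2 fell most, by 0.52, and PSMA4 least, by 0.17, and PSMA4 lost its call with the 5 CPM filter. PSMA2 shares 14.6% of its exonic bases with another gene on its strand, so its value is uncertain. PSMA3 was at 74.0, 72.6 and 72.9 CPM against 58.1, 56.0 and 58.4 CPM, without overlap.

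Of the caps PSME3 and PSME4 fell most. PSME3 was at 167, 161 and 163 CPM with DMSO and at 108, 109 and 106 CPM with GNF-7, and fell by 34.1% (log2 fold change -0.60, SE 0.04, edgeR adjusted p = 5.8e-21). PSME4 fell by 0.58. The interferon-induced PSME2 and PSME1 fell by 0.24 and 0.12, and PSME1 lost its call with total counts as the scale, with the 5 CPM filter and without the first DMSO or the second GNF-7 24 h library (edgeR adjusted p of 0.116 and 0.106).

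PSMF1 was the gene that rose at 24 h. It was at 97.5, 88.4 and 87.4 CPM with DMSO and at 105, 104 and 103 CPM with GNF-7. The 3 GNF-7 libraries lay above the highest DMSO library and below the lowest cycling library, and the rise was 14.1% (log2 fold change 0.19, SE 0.04, edgeR adjusted p = 2.3e-04). Of the chaperones, PSMG3 fell by 0.19, PSMD5 by 0.35 and PSMD10 by 0.27, while PSMD9 (0.07), PSMG2 (0.10) and PSMG4 (-0.10) were not called. The fall of PSMG3 was lost with the 5 CPM filter and without the first DMSO or the second or the third GNF-7 library (edgeR adjusted p of 0.074 to 0.131). PSMG1 was at 28.4, 25.0 and 28.7 CPM with DMSO and at 33.2, 28.9 and 29.1 CPM with GNF-7, a log2 fold change of 0.15 that missed the threshold (edgeR adjusted p = 0.0503) but was called with total counts as the scale, with the 5 CPM filter and without the first or the third DMSO or the second or the third GNF-7 library (0.031 to 0.047).

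**Figure D3:**
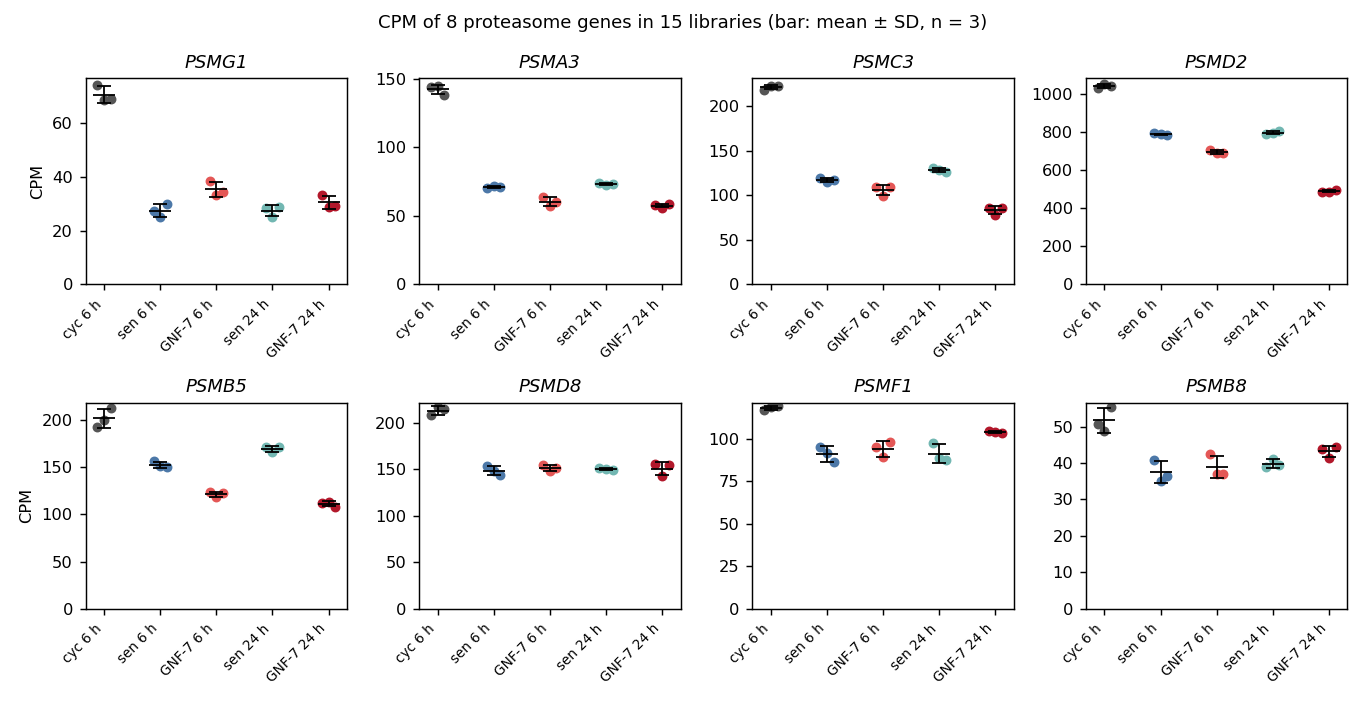
CPM of 8 proteasome genes in each of the 15 libraries, with the mean ± SD of each group in black and a separate axis from 0 for each gene. PSMD2, PSMC3, PSMB5 and PSMA3 have their highest mean in cycling cells and their lowest with GNF-7 for 24 h, PSMG1 has its highest mean in cycling cells and is lower in all senescent groups, and PSMD8 is level across the 4 senescent groups.

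The immunoproteasome subunits were not called at 24 h. PSMB8 was at 38.9, 41.2 and 39.4 CPM with DMSO and at 43.9, 41.4 and 44.3 CPM with GNF-7. The lowest GNF-7 library lay just above the highest DMSO library. Its log2 fold change was 0.12 (SE 0.06, edgeR adjusted p = 0.097), and those of PSMB9 and PSMB10 were 0.20 and 0.19. All 3 were called higher with the 5 CPM filter, and PSMB8 also with total counts as the scale. PSMB5 fell while PSMB8 was not called, and the ratio of PSMB8 to PSMB5 per length was 0.134, 0.146 and 0.135 with DMSO for 24 h and 0.229, 0.215 and 0.242 with GNF-7. It was 0.151 ± 0.006 in cycling cells and 0.188 ± 0.013 with GNF-7 for 6 h. The ratio of PSMB9 to PSMB6 was 0.059 ± 0.005 with DMSO and 0.090 ± 0.004 with GNF-7 at 24 h, without overlap. That of PSMB10 to PSMB7 was 0.031 ± 0.004 and 0.041 ± 0.006 and its libraries overlapped. These ratios are descriptions, with no test.

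**Figure D4:**
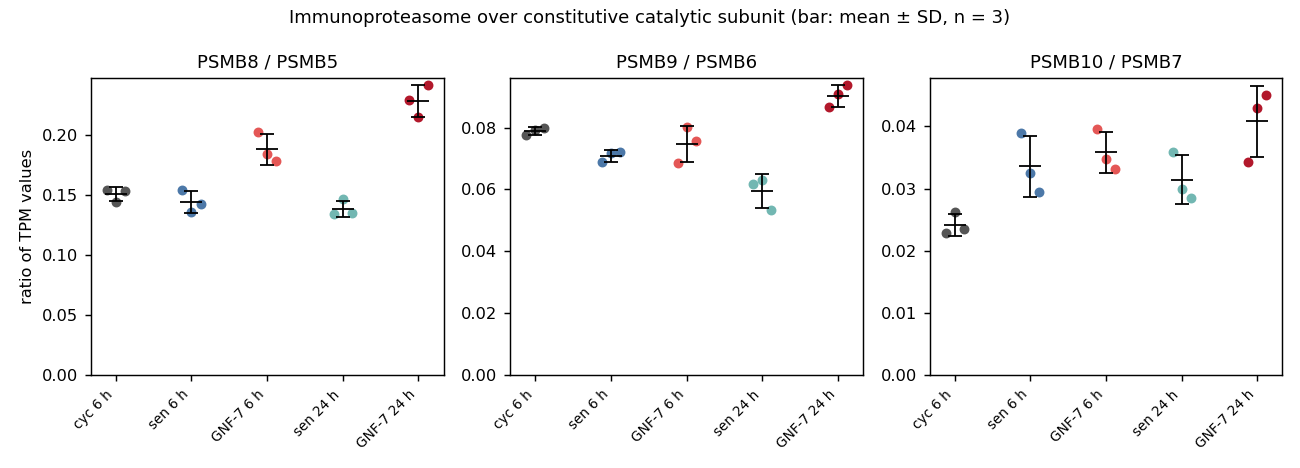
Ratio of each immunoproteasome subunit to the cutting subunit it replaces, per length, in every library, with the mean ± SD of each group in black. The GNF-7 24 h libraries hold the 3 highest ratios of PSMB8 to PSMB5, between 0.215 and 0.242.

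The 14 class I antigen processing genes were counted for GNF-7 too. Of these, 7 fell and 1 rose at 6 h, where 21.4% of all tested genes fell and 17.9% rose. At 24 h 10 fell and 2 rose, where 29.7% fell and 29.3% rose, and the medians were -0.14 and -0.29. The 2 that rose at 24 h were 1 with DESeq2 or its size factors, without mitochondrial genes, without a filter, and without the first or the second DMSO or the first or the third GNF-7 library. TAPBP, which loads peptides onto class I molecules, fell by 0.66 at 24 h and TAP1 by 0.25. IRF1 rose by 0.70 at 6 h and by 0.78 at 24 h. TAP1 was not called at 6 h, at -0.01.

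The values were also set beside the promoter letters. The 7 tested genes with an ISRE core had a median log2 fold change of -0.12 at 24 h, and 4 of the 7 fell. The 33 tested genes with a window and no such match had a median of -0.40, and 27 fell. PSMB9 was among the 33, and its log2 fold change of 0.20, not called, was the highest of all tested proteasome genes. Of all tested genes 29.7% fell at 24 h. For the ARE core the medians were close, -0.35 in the 15 genes with a match and -0.37 in the 25 without. For CCAAT they were -0.43 in the 19 genes with a match and -0.33 in the 21 without. These are descriptions over genes chosen by letters, with no test.

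The falls at 24 h were tested against those at 6 h as an interaction. In 24 of the 46 genes the effect of GNF-7 was lower at 24 h than at 6 h and in 0 it was higher, beside 18% and 12.8% of all genes. The median difference was -0.19 on the log2 scale, against 0.00 for all genes. PSMD2 had the largest difference, -0.52 (SE 0.05, edgeR adjusted p = 6.4e-15), followed by PSMC3 with -0.48 (adjusted p = 1.9e-09). The difference of PSMB5 was -0.28. Changes between the DMSO times enter these differences. The mean of PSMB5 went from 153 to 169 CPM with DMSO and from 121 to 111 CPM with GNF-7. That of PSMD2 went from 790 to 798 CPM with DMSO and from 697 to 491 CPM with GNF-7. None of the alpha subunits but PSMA5 and PSMA7, and none of the 4 PSMG chaperones, was among the 24. The difference of PSMG1 was -0.21 and was not called (edgeR adjusted p = 0.085), nor was that of PSMF1, 0.14 (0.080).

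Time in DMSO moved the proteasome genes little and upward. Between DMSO at 6 h and DMSO at 24 h, 11 genes rose and PSME3 fell, beside 9.26% and 9.29% of all genes, and the median log2 fold change was 0.06 against 0.01 for all genes. The rises were 0.11 to 0.17, the largest that of PSME1, and they took in PSMB1, PSMB3, PSMB5, PSMB7, PSMC3, PSMC5, PSMD4, PSMD7, PSMD13 and PSMD14. This direction depended on the scale. With total counts 0 genes rose and 9 fell, the median was -0.05, and the median of all genes moved by -0.11. The count that rose also depended on single libraries: it was 6 without the third DMSO 6 h library, 5 without the first DMSO 24 h library and 7 without the third.

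Set in order by mean CPM, 45 of the 46 genes were highest in cycling cells and 32 were lowest with GNF-7 for 24 h. In 44 genes every GNF-7 24 h library lay below every cycling library. The cycling mean was 1.79 times the GNF-7 24 h mean in the median gene, and it was at least 2 times as high in 13 genes. The shares of all tested genes with these orders were not computed, so the counts only describe the list. GNF-7 24 h and cycling libraries differ in senescence, compound and time, which cannot be told apart here. The order of groups in between was less fixed. For PSMB5 no 2 neighbours overlapped: GNF-7 24 h, GNF-7 6 h, DMSO 6 h, DMSO 24 h and cycling cells followed each other upward. For PSMD2 and PSMC4 the 2 DMSO groups overlapped, and for PSMD8 all 4 senescent groups did. The proteasome genes together made up 0.708 ± 0.005% of all counts in cycling cells. In senescent cells they made up 0.537 ± 0.002% and 0.515 ± 0.011% with DMSO for 6 h and 24 h. With GNF-7 for those times it was 0.487 ± 0.012% and 0.398 ± 0.008%. All counts include those of mitochondrial genes, whose own share was 4.32% in cycling cells and 23.3% with GNF-7 for 24 h. A rise of that share lowers these percentages by itself. Between the DMSO times the percentage was lower at 24 h, while the median log2 fold change was 0.06.

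Genes that work with the proteasome without a PSM symbol were counted from a list of 18. In senescent cells 14 fell and 2 rose, beside 34.4% and 35.6% of all tested genes, with a median log2 fold change of -0.55. POMP, which the assembling core needs before it can mature, fell by 0.56 with senescence, by 0.14 with GNF-7 at 6 h and by 0.32 at 24 h. Its fall at 6 h was lost without the third DMSO library (edgeR adjusted p = 0.072) or the second GNF-7 library (0.086). UCHL5, a cap-bound enzyme that removes ubiquitin, fell by 1.56 with senescence, a larger fall than that of any PSM gene. The ubiquitin receptor ADRM1 fell by 0.15 with senescence, but it was not called with total counts as the scale (-0.014) or with the 5 CPM filter, where its sign turned (0.0040). With GNF-7 it was at -0.03 and -0.04, not called. Of the 18, 6 fell and 3 rose at 6 h, where 21.4% of all tested genes fell and 17.9% rose. At 24 h 8 fell and 5 rose, where 29.7% of all tested genes fell and 29.3% rose. The medians were -0.02 and -0.07. With the 5 CPM filter 6 rose at 6 h and 8 at 24 h, and without a filter, or without the second DMSO or the first GNF-7 library, 3 rose at 24 h.

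Of 9 genes that regulate proteasome transcription, 6 fell and 3 rose with senescence, beside 34.4% and 35.6% of all tested genes, with a median of -0.32. NFE2L1 was at 496, 499 and 497 CPM in cycling cells and at 664, 619.9 and 639.8 CPM in senescent cells, a rise of 0.37 on the log2 scale in the same libraries in which the subunits fell. Its mRNA was not called with GNF-7, at -0.03 and 0.03, except with the 5 CPM filter, where it was called higher at 24 h (0.13). NFE2L2, the gene of NRF2, fell by 0.54 with senescence and rose by 0.54 and 0.37 with GNF-7 at 6 h and 24 h. VCP, the ATPase that pulls ubiquitylated proteins, NRF1 among them, out of membranes, fell at both times. It was at 472, 452 and 469 CPM with DMSO for 24 h and at 236, 231 and 238 CPM with GNF-7, a fall of 0.98 on the log2 scale after a fall of 0.59 at 6 h. Of the 9 genes 4 rose and 2 fell at 6 h, beside 17.9% and 21.4% of all tested genes. At 24 h 3 rose and 1 fell, or 5 and 1 with the 5 CPM filter, beside 29.3% and 29.7%, and the medians were 0.02 and 0.03. MAFK, a small partner of these factors, rose by 0.89 at 6 h, and MAFF by 1.05 at 24 h. With senescence MAFF had a log2 fold change of -1.22 and MAFK of 0.85, both called.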

How the data were processed

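RNA of 15 HT-1080 libraries, 3 in each of 5 groups, was sequenced after a stranded mRNA preparation, per the labels' protocols. The authors deposited 1 table of raw counts per Ensembl gene, without normalization. The submitters' processing notes name bcl2fastq 2.20.0.422, STAR 2.7.9a, featureCounts 1.5.1 and GRCh38. The annotation release and the strand setting of the counting are not given in the sources used here. Values are uncertain in the 17 genes with a named pseudogene. Of these, 3 (PSMC1, PSMD10 and PSME2) had pseudogene counts of 1% or more of their own. Because the release and the strand setting are not given, values are also uncertain in genes that overlap others in 10% or more of their exonic bases. On the same strand these were 5: PSMA1, PSMA2, PSMA6, PSMB10 and PSMD9. On the other strand they were 8: PSMA2, PSMB8, PSMC1, PSMC5, PSMD1, PSMD7, PSMG2 and PSMG4.

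Of 60673 rows, 3 were left out because 1 entry was broken over several lines. Symbols came from a table of Ensembl names (60400 identifiers matched) and exon lengths from GENCODE 29 (58452 genes). Columns were matched to libraries by the library names in the labels. Counts were tested with edgeR 4.0.16 in R 4.3.3: filterByExpr (18563 genes kept), TMM scaling, a robust quasi-likelihood fit over all 5 groups and Benjamini-Hochberg adjustment over all genes tested, with a threshold of 0.05. The common biological coefficient of variation was 4.64%. CPM values use TMM-scaled library sizes; TPM values divide by the exon length. The script was tested on simulated data.

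The alternatives were DESeq2 1.42.0 and its size factors, limma voom 3.58.1, total counts, no filter, testing only genes averaging 5 CPM or more, leaving out mitochondrial genes, removing a trend with gene length, only the groups compared, the replicate number as a block, and leaving out each library in turn. Scaling factors were computed after filtering, so a changed filter also changed the scale. Members and gene lists were chosen with earlier results of these data known. Genes were named by a fixed rule: the highest and lowest log2 fold change of each role, all of PSMB5 to PSMB10, PSME1 to PSME4, PSMF1, PSMG1 to PSMG4, PSMD5, PSMD9 and PSMD10, and, of the other lists, POMP, ADRM1, NFE2L1, NFE2L2, IRF1, TAP1 and the gene with the smallest p, except for genes that are not reported here. Further genes named for their role, their promoter or their pattern were chosen after their values were seen. The alternatives for the other lists were chosen after seeing the data. In the interaction and the DMSO comparison, alternatives were computed for called genes.

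Replicates of a group differed beyond sampling noise in every pair (chi-square per degree of freedom of 3.02 to 12.7). Deviations of same-numbered libraries from their group means correlated at -0.039 to 0.054. The main fit used no pairing by replicate number, and a weak pairing is not excluded.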

Additional observations from a re-analysis of the deposited data

Results flagged for a closer look

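In 24 genes the effect of GNF-7 at 24 h differed from that at 6 h by a test of the difference itself (edgeR's quasi-likelihood test, adjusted over all genes). Each difference is the log2 fold change at 24 h minus that at 6 h, and all 24 are negative. Changes between the DMSO times enter it. Among the 24, PSMB1, PSMB3, PSMB5, PSMC3, PSMC5, PSMD7, PSMD13 and PSMD14 also rose between those times in the main fit. In the alpha ring the differences were -0.25 for PSMA5 and -0.18 for PSMA7. In the beta ring they were -0.25 for PSMB1, -0.31 for PSMB2, -0.37 for PSMB3, -0.13 for PSMB4, -0.28 for PSMB5 and -0.29 for PSMB6. Among the ATPases they were -0.31 for PSMC1, -0.18 for PSMC2, -0.48 for PSMC3, -0.24 for PSMC4 and -0.24 for PSMC5. In the other subunits of the 19S cap they were -0.43 for PSMD1, -0.52 for PSMD2, -0.21 for PSMD3, -0.20 for PSMD6, -0.35 for PSMD7, -0.22 for PSMD11, -0.44 for PSMD13 and -0.39 for PSMD14. The chaperone PSMD5 had -0.27 and the caps PSME3 and PSME4 had -0.32 and -0.35. The call of PSMC2 was lost without the first GNF-7 6 h, first DMSO 24 h or the third GNF-7 24 h library (adjusted p of 0.054 to 0.059), and that of PSMD5 without any of 5 single libraries (0.062 to 0.102). The difference of PSMC1 is uncertain if counting did not separate the strands, since 75.8% of its exonic bases lie opposite another gene.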

How the results depend on the processing

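The 45 falls with senescence, the 27 and 37 falls with GNF-7 and the 24 falls in the interaction stayed within 1.5 times under every alternative run. The median with senescence, -0.55, was -0.418 with total counts as the scale, -0.400 with the 5 CPM filter, -0.610 with the length trend removed and -0.492 with only the groups compared. At 6 h the median, -0.13, was -0.078 with the 5 CPM filter. Genes that rose at 6 h numbered 1 without a filter in place of 2. At 24 h, 3 rose with total counts, 7 with the 5 CPM filter, where the median was -0.251, and 2 with the replicate block, in place of 1. In the interaction 1 rose with that filter. Between the DMSO times 0 rose and 9 fell with total counts (median -0.052), 4 rose without a filter, 17 with the 5 CPM filter, and 5 rose and 0 fell with the length trend removed. The 5 CPM filter and the fit without a filter also set the scale anew from the genes kept. The cause was not tested.

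Leaving out single libraries gave 0 higher and 45 lower genes with senescence (median -0.560 to -0.549), 1 to 2 higher and 23 to 28 lower at 6 h (-0.142 to -0.112), 1 to 2 and 35 to 37 at 24 h (-0.390 to -0.315), 0 to 1 and 20 to 28 in the interaction (-0.230 to -0.169), and 5 to 11 and 0 to 1 between the DMSO times (0.048 to 0.086). No pair of same-numbered libraries of 30 had deviations correlated over 0.1 and 7 of 15 libraries correlated best with their own number. With the replicate block 25 genes fell in the interaction and 12 rose between the DMSO times, and PSMG1 was called at 24 h (0.15).

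Signs turned in genes near 0. With senescence PSMC4 was 0.030 with total counts and 0.048 with the 5 CPM filter, PSMB10 was -0.0015 with limma voom, -0.185 with the length trend removed and -0.117 to 0.098 with single libraries left out, ADRM1 was 0.0040 with the 5 CPM filter and, not called, -0.014 with total counts, and IRF1 was 0.0071 with total counts and 0.025 with that filter. At 6 h PSMG3 was 0.0090 with DESeq2's size factors, 0.0089 with DESeq2, 0.013 with total counts, 0.0060 without mitochondrial genes, 0.052 with the 5 CPM filter and 0.012 with only the groups compared. With that filter PSMB9 was 0.019, PSMC1 0.011, PSMD4 0.034, PSMD7 0.038, ADRM1 0.026 and NFE2L1 0.019. PSMB10 was -0.047 with the length trend removed. TAP1 was 0.0023 with DESeq2's size factors and with DESeq2, 0.0061 with total counts, 0.0060 with only the groups compared, 0.046 with the 5 CPM filter and 0.017 with the length trend removed. With single libraries left out at 6 h, PSMB8 ranged from -0.017 to 0.120, PSMB9 from -0.055 to 0.016, PSMB10 from -0.074 to 0.142, PSMD4 from -0.041 to 0.00039, PSMD7 from -0.040 to 0.031, PSME1 from -0.096 to 0.015, PSMG3 from -0.059 to 0.061, TAP1 from -0.042 to 0.065 and ADRM1 from -0.060 to 0.0032. At 24 h PSMD8 was -0.0019 with DESeq2's size factors, -0.0020 with DESeq2, -0.0084 without mitochondrial genes, -0.020 without a filter, -0.049 with the length trend removed and -0.022 to 0.041 with single libraries left out, PSMG4 was 0.0054 and ADRM1 0.057 with the 5 CPM filter. Between the DMSO times PSMD4 was -0.0021 with total counts. PSMG2 was called higher with the 5 CPM filter at both times. Depth limits PSMA8 and PSMB11, which had too few counts to test.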

Other observations

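The genes that supply ubiquitin and activate it were counted as a list of 6. With senescence 4 fell and 2 rose, beside 34.4% and 35.6% of all tested genes (median log2 fold change -0.22). RPS27A, which encodes ubiquitin fused to a ribosomal protein, fell by 0.47 on the log2 scale, and the 2 that rose were 0 without the first cycling library and 1 without any other of the 6 libraries compared or with the length trend removed. With GNF-7, 3 fell and 0 rose at 6 h, beside 21.4% and 17.9% of all tested genes. At 24 h 3 fell and 1 rose, beside 29.7% and 29.3%, and the number that rose was 3 with the 5 CPM filter and 0 without a filter or without the first DMSO or the third GNF-7 library. The medians were -0.09 and -0.11. UBB, a gene of several joined ubiquitin copies, fell by 0.17 at 6 h. UBA1, the main enzyme that activates ubiquitin, fell by 0.44 at 24 h.

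ATF4, the transcription factor whose protein GCN2 signalling raises, was at 182 ± 7.89 CPM with DMSO for 6 h, 433 ± 5.83 with GNF-7 for 6 h, 192 ± 3.84 with DMSO for 24 h and 611 ± 10.7 with GNF-7 for 24 h (mean ± SD, n = 3). In cycling cells it was at 326 ± 0.848 CPM. Its log2 fold changes with GNF-7 were 1.25 and 1.67, both called by edgeR. The AARE core was in 1 of the 42 proteasome genes with a promoter window, PSMF1, whose log2 fold changes are given above, and no relation to ATF4 was tested.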
